A study of Mus musculus with 11 samples.

Results

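Transcripts of 10 genes of lipoprotein receptors, related sorting and scavenger receptors and a receptor chaperone were followed. The samples were mouse hippocampal neurons that had received the microRNA miR-181a-5p or a control. The genes were chosen as a family, by name, with earlier results of these samples known. They are Lrp1, Lrp1b, Lrp4, Lrp8 and Vldlr of the low-density lipoprotein (LDL) receptor family, the sorting receptors Sorl1 and Sort1, the scavenger receptors Scarb1 and Scarb2, and the receptor chaperone Lrpap1. All 10 were among the 48709 genes listed in the count tables, and all 10 were among the 17365 genes that had enough reads to be tested.

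Hippocampal neurons of CD1 mouse embryos were cultured from embryonic day 17, the hippocampi of several embryos being pooled for a preparation. Lipid nanoparticles were added on day 10 in vitro and stayed for 48 h, so that RNA was taken on day 12 in vitro. In 5 samples the particles carried a miR-181a-5p mimic, a synthetic RNA duplex that acts as the mature microRNA (the mimic group). In 6 samples they carried a negative control oligonucleotide (the control group). According to the study's methods, apolipoprotein E4, a protein that binds receptors of this family, was given together with the particles, in both groups. Every sample compared here had therefore received particles, and an effect of the particles themselves cannot be told apart from the culture. The labels did not say whether samples of a group came from separate cultures, so p-values measure the spread between these samples, which may be technical.

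Receptors of the LDL receptor family are membrane proteins that bind lipoproteins and many other ligands, carry them into the cell in clathrin-coated pits, release them in the acid endosome and return to the surface. In brain, astrocytes release apolipoprotein E particles that supply neurons with cholesterol, and several of the family also act as signalling receptors, among them the reelin receptors that guide the layering of hippocampal neurons. Sorl1 and Sort1 belong to the VPS10 domain receptors, which direct cargo between the Golgi, endosomes and the surface.

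The 2 oligonucleotides are shown because the seed, bases 2 to 8 from the 5′ end and in capitals, is the stretch of a microRNA that pairs with messenger RNA. The mimic had the mature miR-181a-5p sequence of RefSeq.
miR-181a-5p mimic: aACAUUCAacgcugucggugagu
negative control oligonucleotide: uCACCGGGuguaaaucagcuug

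The reverse complement of the mimic seed is TGAATGT. It was sought in the 3′ untranslated regions (3′ UTRs) of the genes, on the transcript strand only, together with the same 7 letters followed by A (TGAATGTA) and the 6 letters within them, GAATGT, which pair with bases 2 to 7. In the longest annotated 3′ UTR, the 7-letter word was present in 1 of the 10 genes, Lrp8, and in 18.5% of the 14489 tested genes with an annotated 3′ UTR, whose lengths differed. The 6-letter word was present in 6 of the 10 genes and in 36.6% of all, and the 8-letter word in 0 of the 10 and in 6% of all. These words are shown with 25 bases of the transcript for Lrp8, which was called lower with the mimic, for Lrp4, the member on the study's list of predicted miR-181a-5p targets, for Lrp1b, which was also called lower, and for Lrp1, which had the 8-letter word in another transcript. Capitals mark the matching word and positions are on GRCm38.
Lrp8, 7-letter word, chr4:107874725-107874749, plus strand: gaaataccatgtttccTGAATGTgc
Lrp8, 6-letter word, chr4:107875143-107875167, plus strand: gctttgtttactcttcaGAATGTgt
Lrp4, 6-letter word, chr2:91512431-91512455, plus strand: tcttcttcctcctgctgGAATGTct
Lrp4, 6-letter word followed by A, chr2:91513655-91513679, plus strand: gcacttgggctgttcaGAATGTAga
Lrp1b, 6-letter word, chr2:42650606-42650630, minus strand: atggctgctgaagaagaGAATGTct
Lrp1, 8-letter word, chr10:127589430-127589454, minus strand: cacatggctactctaTGAATGTAtg

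The Lrp8 and Lrp4 words lay in the 3′ UTR that follows the stop codon of the longest coding transcript, the 7-letter word of Lrp8 at base 2431 of 4529. The Lrp1 word lay only in the 3′ UTR of a short annotated transcript, and the 3′ UTR of the full-length transcript, of 789 bases, held none of the 3 words. Lrp1b likewise had the 6-letter word only in a short transcript with a longer 3′ UTR, and 0 matches in the 1686 bases after its main stop codon. Vldlr and Sort1 held the 6-letter word at 1 position each and Scarb2 at 2. Sorl1, Scarb1 and Lrpap1 held none of the 3 words of the mimic. The corresponding 7-letter word of the negative control oligonucleotide was in 0 of the 10 genes and in 2.87% of all. Its 6-letter word was in 2 of the 10, Sorl1 and Scarb2, and in 9.09% of all. A match is a run of letters and does not show that the microRNA bound there.

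Total counts ranged from 17287168 to 48091231 per sample, the deepest being control replicate 1, and the member with the fewest reads in any sample, Scarb1, still had 668 counts in it. Neuron markers summed to between 8572 and 8806 CPM (reads of a gene after scaling every library to equal size) in the control and between 8161 and 8437 CPM in the mimic samples, with 3 of 10 called lower (Slc17a7, Prox1 and Camk2a). Astrocyte markers summed to 4950 to 5390 and 4543 to 4860 CPM, with 1 of 10 called lower (Slc1a2), so the cultures held both neurons and astrocytes as far as markers show. Microglia markers summed to only 28.02 to 30.53 CPM in the control and 26.58 to 28.2 CPM in the mimic samples (0 of 11 tested called), oligodendrocyte lineage markers to 335.4 to 404.5 and 307.3 to 354.8 CPM (0 of 9). Fibroblast and vascular markers summed to 298.3 to 438 and 443.2 to 585.5 CPM, with Cdh5 called higher and Rgs5 called lower of 13 tested, while the endothelial marker Cldn5 had 1 count over all samples. Progenitor and cycling markers summed to 212.5 to 218.7 and 218 to 241.6 CPM, with 2 of 10 called higher (Top2a and Cdk1). The summed neuron, astrocyte, and fibroblast and vascular levels did not overlap between the groups. Such sums weigh abundant genes most. Slc1a2 fell from 2398 to 2109 CPM, while Aldh1l1, Slc1a3 and Gja1 had log2 fold changes of -0.001, 0.001 and 0.05. Of the 10 astrocyte markers 8 were below 0 and 2 above. Slc1a2 held the 7-letter word of the mimic 2 times and Prox1, a predicted target, 4 times, while Slc17a7 and Camk2a held none. Whether the mimic acted on these transcripts directly was not tested. In bulk samples, fewer cells of a type and less RNA per cell cannot be told apart, and the part of these marker differences in the results that follow was not tested.

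The question put to the data was whether the 10 genes had other transcript levels in cultures given the mimic than in cultures given the control oligonucleotide. Lrp1b and Lrp8 were called lower with the mimic, Lrp1b in all 20 alternative settings and Lrp8 in 7 of them. No member was called higher, although 3 had a log2 fold change above 0. The Lrp1b transcript was at 0.862 of the control level and the Lrp8 transcript at 0.941. Genes were called at an adjusted p under 0.05 in edgeR's quasi-likelihood test with Benjamini-Hochberg adjustment over all genes tested, and every adjusted p here is of that test unless another is named. By this rule 2 of 10 members were called, where 495 of 17365 genes (2.85%) were called in all, 307 of them lower (1.77%) and 188 higher (1.08%). Unadjusted p-values under 0.05 were found for 6 members and for 15.7% of all genes. Of the 10 log2 fold changes, 7 were below 0 and 3 above, with a median of -0.07, and of all genes 50.1% were below 0, with a median of -0.000149. The signs of all 10 were the same in each of the 20 alternatives. The whole range over the members, -0.21 to 0.10, lay within the 5th and 95th percentiles of all genes, -0.24 and 0.30. These percentiles take in tested genes of every level, including those of few counts. By unadjusted p Lrp1b ranked 45 among the 17365 genes.

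**Figure D1:**
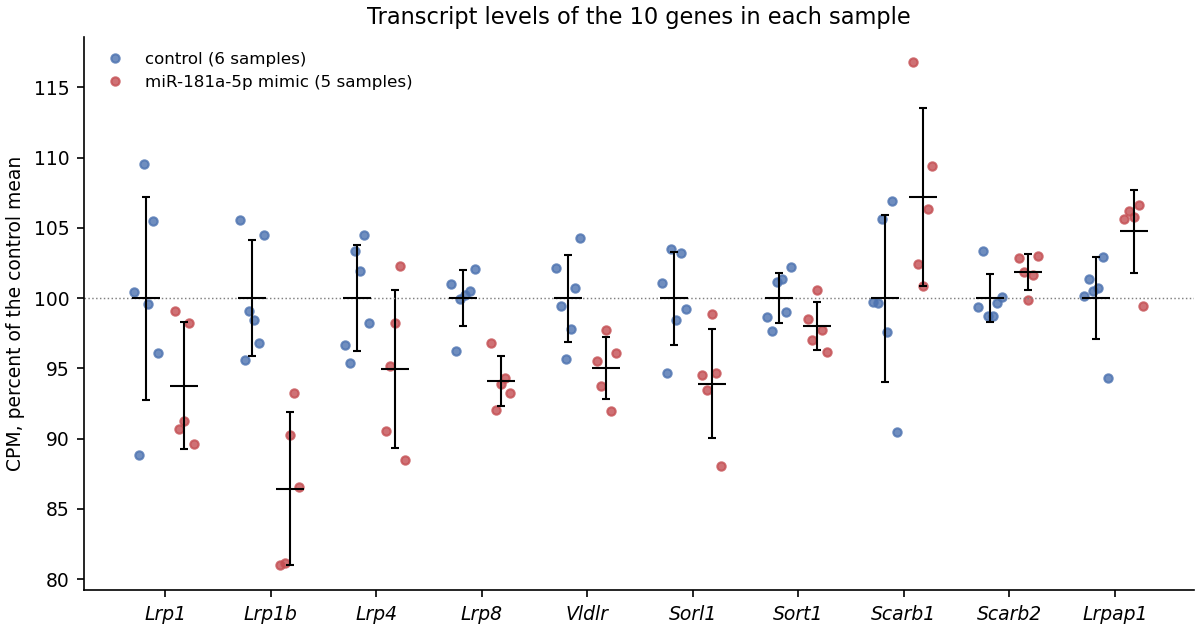
CPM of the 10 genes in each of the 6 control (blue) and 5 mimic (red) samples, as a percent of the gene's control mean on a linear axis that does not start at 0; black bars give the mean and SD of each group. The mimic samples of Lrp1b, 51.61 to 59.39 CPM before the conversion, sit below all control samples, 60.88 to 67.25, and for the other 9 genes the groups overlap.

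Lrp1b encodes a very large endocytic receptor close to Lrp1 in structure that is made mainly in brain and clears ligands slowly. The gene (ENSMUSG00000049252, chr2:40595246-42653624, minus strand) spans 2058 kb. In the control samples Lrp1b was between 60.88 and 67.25 CPM, with a median of 62.91. The mimic samples had 51.61, 51.69, 57.49, 59.39 and 55.15 CPM. All 5 mimic samples were thus below all 6 control samples, a separation that 1 member showed and 502 of all genes tested (2.89%, of which 1.73% with the mimic below and 1.16% with it above). The log2 fold change was -0.21 ± 0.04 (SE), a fold of 0.862 with an approximate 95% interval of 0.819 to 0.908 (adjusted p = 0.00227). The group means were 63.7 ± 2.61 and 55.06 ± 3.46 CPM (SD, n = 6 and 5). Lrp1b was called under all 20 alternatives, including those that left out 1 sample, with adjusted p between 3.98e-07 and 0.0188.

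Lrp1, the broad scavenging and signalling receptor that takes up apolipoprotein E particles in neurons and glia, is the most strongly counted member. Lrp1 (ENSMUSG00000040249, chr10:127538161-127621148, minus strand) ranged from 648.0 to 799.0 CPM in the control samples, with a median of 729.3. Its mimic values were 722.6, 661.4, 665.3, 716.5 and 653.7 CPM. All 5 lay inside the control range, and control replicate 2 was the lowest of all 11 samples. A log2 fold change of -0.09 ± 0.05 did not pass (adjusted p = 0.409), and its interval ran from a fold of 0.877 to 1. The spread of Lrp1 among the control samples, a coefficient of variation of 7.23%, was the largest of any member, although counting alone would give at most 0.902% at its depth. Without a filter on low counts a log2 fold change of -0.097 was called (adjusted p = 0.0228, SE 0.0272). The reported test gave -0.0924 with an SE of 0.0492, so the call came mainly with the smaller SE. The wide spread of the control samples was the same in both.

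Lrp8, also called apolipoprotein E receptor 2, and Vldlr are the reelin receptors of neurons and bind apolipoprotein E as well. Lrp8 (ENSMUSG00000028613, chr4:107802261-107876840, plus strand) was between 234.8 and 249.1 CPM in the control samples, with a median of 244.9. Its values with the mimic were 236.3, 224.6, 229.1, 230.2 and 227.6 CPM. The groups overlapped through a single pair of samples, control replicate 2 at 234.8 and mimic replicate 1 at 236.3, and the other 5 control samples were all at 243.8 or more. For Lrp8 the log2 fold change was -0.09 ± 0.02, a fold of 0.941 with an interval of 0.91 to 0.972 (adjusted p = 0.0414). This call lay near the threshold. It held in 7 of 20 alternatives and was lost in 9 of the 11 that left out 1 sample, where adjusted p lay between 0.0316 and 0.144 and the log2 fold change between -0.10 and -0.08. It passed without control replicate 2 or without mimic replicate 1 and was lost without any other sample.

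Vldlr (ENSMUSG00000024924, chr19:27216484-27254231, plus strand) ranged from 174.7 to 190.5 CPM in the control samples, with a median of 182.8. The mimic samples had 174.5, 171.2, 178.5, 168.0 and 175.5 CPM. Of these, 3 were below the lowest control sample. The log2 fold change of -0.07 ± 0.03 did not pass (adjusted p = 0.142, interval of the fold 0.916 to 0.985). The Lrp8 and Vldlr changes were not shown to differ: the log2 ratio of Lrp8 to Vldlr within a sample differed by -0.015, mimic minus control (exact two-sided permutation test, p = 0.558).

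Lrp4, the agrin receptor of the nerve-muscle junction that also binds apolipoprotein E, was among the 3 members of lowest level. Lrp4 (ENSMUSG00000027253, chr2:91457511-91513779, plus strand) was between 40.95 and 44.88 CPM in the control samples, with a median of 42.97. Lrp4 was at 38.88, 40.86, 42.19, 43.93 and 38.00 CPM with the mimic. The groups overlapped, with 3 mimic samples below the lowest control sample. For Lrp4 the log2 fold change of -0.07 ± 0.04 did not pass (adjusted p = 0.41), although Lrp4 was the only member among the 1016 tested genes on the study's list of predicted miR-181a-5p targets. The value was -0.042 without mimic replicate 5 and -0.1134 with libraries thinned to equal totals, and neither was called.

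**Figure D2:**
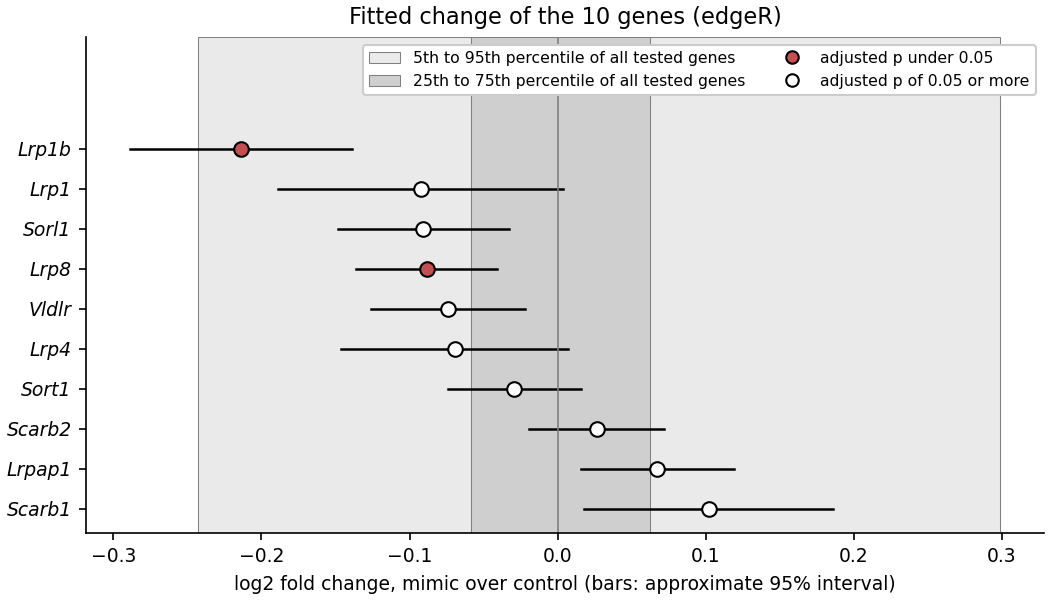
Log2 fold change of each member, mimic over control, with approximate 95% intervals; red points were called, and the grey bands give the 25th to 75th and the 5th to 95th percentiles of all tested genes. Lrp1b at -0.21 and Lrp8 at -0.09 are red, and the other 5 members below 0 and the 3 above 0 are open.

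The sorting receptors were lower in their group means and neither was called. Sorl1, which carries the amyloid precursor protein away from the endosome and is a risk gene of Alzheimer disease (ENSMUSG00000049313, chr9:41964720-42124297, minus strand), was between 169.0 and 184.7 CPM in the control samples, with a median of 178.8. With the mimic it was 168.7, 166.9, 176.5, 169.0 and 157.2 CPM. Mimic replicates 1, 2 and 5 lay below the lowest control sample, replicate 4 was level with it, and replicate 3 lay within the control range. The log2 fold change of -0.09 ± 0.03 missed the threshold (adjusted p = 0.0938, interval of the fold 0.902 to 0.977). It was called without a filter on low counts (adjusted p = 0.044) and without mimic replicate 3 (0.0481).

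Sort1, sortilin, binds progranulin and the pro-forms of neurotrophins (ENSMUSG00000068747, chr3:108284082-108361511, plus strand). It ranged from 357.5 to 374.0 CPM in the control samples, with a median of 366.2, and was 360.5, 355.0, 368.2, 357.7 and 351.9 CPM in the mimic samples. The groups overlapped over most of their ranges. The log2 fold change was -0.03 ± 0.02 (adjusted p = 0.616, interval of the fold 0.95 to 1.01). It was -0.018 without control replicate 6, -0.0192 with upper-quartile scaling and -0.0111 with library totals alone. The log2 ratio of Sorl1 to Sort1 differed by -0.06, mimic minus control, which did not pass (exact permutation p = 0.0628, adjusted over the 5 ratios 0.157).

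The scavenger receptors were above the control in their means, and neither was called. Scarb1, the receptor for high-density lipoprotein that passes cholesterol esters into the cell (ENSMUSG00000037936, chr5:125277087-125341094, minus strand), ranged from 32.98 to 38.98 CPM in the control samples, with a median of 36.34. The mimic samples had 42.58, 37.33, 36.78, 38.76 and 39.89 CPM. Replicates 1 and 5 were above all control samples and the other 3 were among them. The log2 fold change of 0.10 ± 0.04 was the highest of any member and did not pass (adjusted p = 0.228, interval of the fold 1.01 to 1.14). Scarb2, a membrane protein of the lysosome that carries the enzyme glucocerebrosidase there (ENSMUSG00000029426, chr5:92441314-92506833, minus strand), was between 216.7 and 226.7 CPM in the control samples, with a median of 218.4. It was 225.7, 223.5, 219.1, 223.1 and 226.0 CPM in the mimic samples. All 5 were inside the control range, whose upper end was control replicate 2 alone. For Scarb2 the log2 fold change was 0.03 ± 0.02 (adjusted p = 0.67). It was 0.0426 without control replicate 2 and 0.0449 with library totals alone, uncalled in both.

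Lrpap1, the receptor-associated protein, holds newly made receptors of the family free of ligand on their way through the secretory path. The gene (ENSMUSG00000029103, chr5:35091501-35105766, minus strand) was the shortest of the members. It ranged from 204.3 to 222.8 CPM in the control samples, with a median of 217.8. The mimic samples had 228.7, 230.0, 229.1, 230.9 and 215.4 CPM. Mimic replicates 1 to 4 were above all control samples and replicate 5 was below 5 of the 6. A log2 fold change of 0.07 ± 0.03 did not pass (adjusted p = 0.19, interval of the fold 1.01 to 1.09). Without mimic replicate 5 it was 0.09, with an adjusted p of 0.0533. Because Lrpap1 is a chaperone of Lrp1, their ratio within a sample was compared too. The log2 ratio of Lrpap1 to Lrp1 was 0.16 higher in the mimic samples (exact permutation p = 0.0173), but the value adjusted over the 5 ratios, 0.0866, did not pass. It passed only when control replicate 2, the sample with the lowest Lrp1, was left out (0.195, adjusted p = 0.0397). The log2 ratio of Lrp1 to Lrp1b was 0.12 higher (p = 0.115, exact permutation test) and that of Scarb1 to Scarb2 0.07 higher (p = 0.188, exact permutation test), and neither passed.

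**Figure D3:**
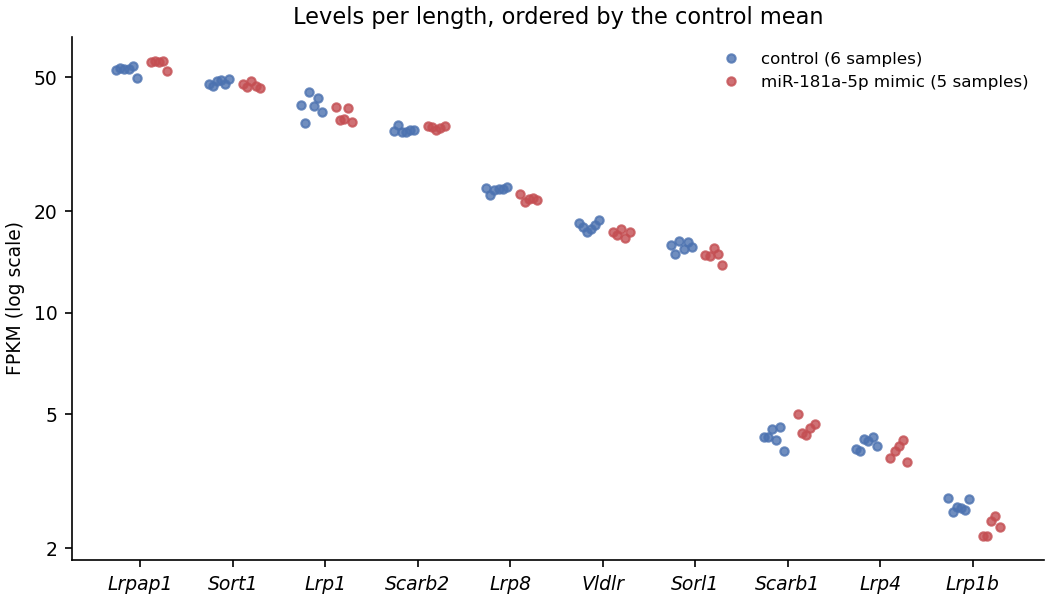
Level of each member on a log axis in FPKM (fragments per kilobase of exon, scaled to library size as CPM is), with the 6 control (blue) and 5 mimic (red) samples as points, ordered by the control mean. The order runs from Lrpap1, with a control mean of 52.61 FPKM, to Lrp1b, with 2.679 FPKM.

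Levels of different genes were compared only per length, in FPKM over the union of a gene's exons. In the control samples Lrpap1 was highest at 52.61 ± 1.54 FPKM (SD, n = 6), followed by Sort1 at 48.35 ± 0.869 and Lrp1 at 41.16 ± 2.97. Scarb2 was at 34.91 ± 0.595, Lrp8 at 23.21 ± 0.463, Vldlr at 18.14 ± 0.561 and Sorl1 at 15.77 ± 0.523 FPKM. These 7 were well above the median tested gene, which was at 3.46 FPKM. Scarb1 at 4.289 ± 0.255, Lrp4 at 4.088 ± 0.154 and Lrp1b at 2.679 ± 0.11 FPKM formed the low end, the highest member being 19.6 times the lowest. Of all neighbours in this order, only Scarb1 and Lrp4 overlapped, with Scarb1 above Lrp4 in 5 of the 6 control samples. The mimic samples had the same order. The order rests on the length chosen, since only 5 of the 10 members kept their place when the coding length was used. The member that was called with the largest fold change, Lrp1b, was thus also the lowest in level, at 2.316 FPKM in the mimic samples.

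The rest of the uptake path was described from 6 lists of genes that act beside the members. Of 121 listed genes 115 were tested, 1 was called lower and 3 higher (3.48%), and their median log2 fold change was -0.004, beside -0.000149 over all genes. Among 14 tested other receptors of the LDL receptor, VPS10 and scavenger families 0 were called, with a median of -0.015 and 7 on each side of 0. Lrp12, a receptor of the LDL receptor family that is on the list of predicted targets, was at 90.12 and 91 CPM (adjusted p = 0.876).

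Of 19 tested ligands and lipoprotein components, 1 was called lower and 2 higher, with a median of 0.01. Clu, clusterin or apolipoprotein J, which Lrp2 and Lrp8 bind, rose from 213.2 ± 10.6 to 232.5 ± 8.98 CPM (log2 fold change 0.13 ± 0.03, adjusted p = 0.0285). Abcg1, which passes cholesterol out of the cell to lipoproteins, rose from 26.54 ± 1.61 to 29.75 ± 1.78 CPM (0.17 ± 0.05, adjusted p = 0.0446). A2m, alpha-2-macroglobulin, a protease inhibitor that Lrp1 clears, fell from 43.83 ± 0.891 to 39.73 ± 2.7 CPM (-0.14 ± 0.04, adjusted p = 0.047). The sample ranges of all 3 overlapped between the groups. Clu was called in 16 of 20 alternatives, Abcg1 in 11 and A2m in 6. Apoe, the main apolipoprotein of brain and a product of astrocytes, had 833.9 ± 44.5 and 781 ± 37.5 CPM, a log2 fold change of -0.09 that did not pass (adjusted p = 0.185). It was called without a filter on low counts (-0.0995, adjusted p = 0.00769), with an SE of 0.0255 beside 0.0358 in the reported test. The mouse Apoe transcript is apart from the apolipoprotein E4 protein added to the wells. Reln, the ligand of Lrp8 and Vldlr, had 195.3 and 197.3 CPM (adjusted p = 0.882), and Grn, progranulin and the ligand of Sort1, 79.26 and 77.21 CPM (adjusted p = 0.648).

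Genes of receptor turnover, processing and chaperones gave 0 calls among 14 tested, with a median of -0.025. Mesd, the chaperone that folds the propeller domains of the family, was at 63.05 and 65.22 CPM (adjusted p = 0.481). Among 22 tested cytosolic adaptors and genes of reelin signalling and retromer 0 were called, with a median of -0.015. Dab1, the adaptor that Lrp8 and Vldlr recruit when reelin binds, was at 129.7 ± 1.96 and 124.4 ± 2.43 CPM. Its sample ranges did not overlap, and its log2 fold change of -0.06 ± 0.03 did not pass (adjusted p = 0.227).

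Of 28 genes of the clathrin coat, dynamin and caveolae 1 was called. Cavin1, a coat protein of caveolae, rose from 12.04 ± 1.4 to 15.25 ± 1.19 CPM (log2 fold change 0.37 ± 0.07, adjusted p = 0.00713), without overlap, and was called under all 20 alternatives. Caveolae are rare in neurons and common in fibroblasts and vessels, and the summed fibroblast and vascular markers were higher in the mimic samples, with 11 of 13 tested above 0 but only Cdh5 called higher and Rgs5 called lower. Their part in this result was not tested. The median of the 28 was 0.00, and clathrin, adaptor and dynamin genes were all uncalled. Of 18 genes of endosomes and lysosomes 0 were called, with a median of -0.01.

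**Figure D4:**
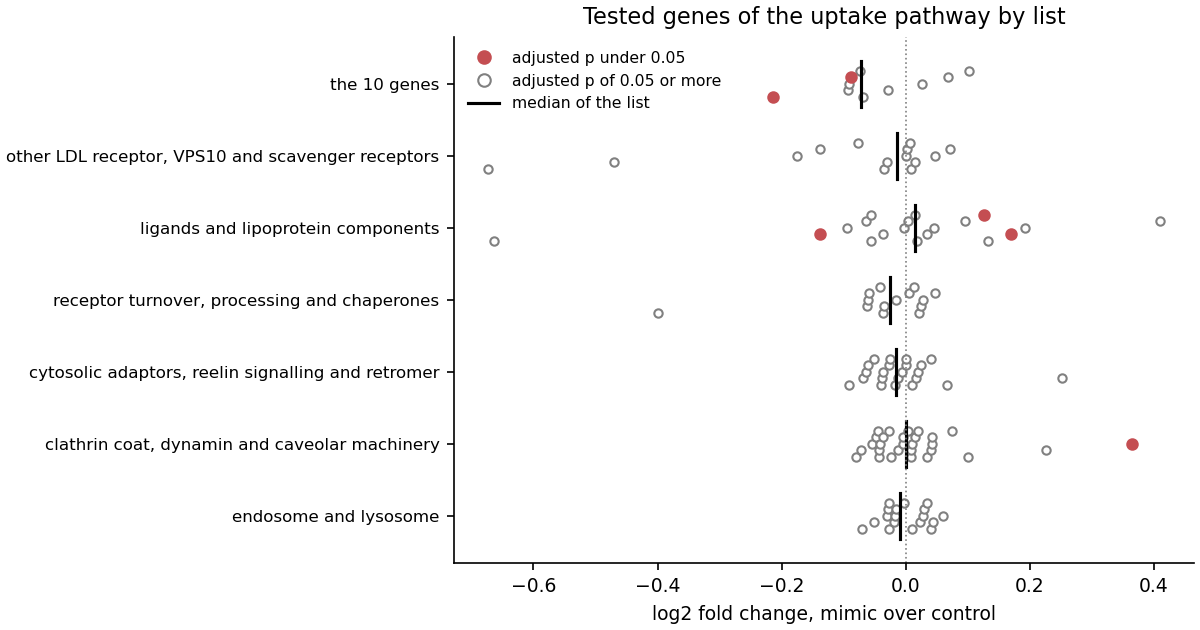
Log2 fold changes, mimic over control, of each tested gene of the members and of 6 lists of the uptake path (points, shifted up and down only to show them apart), with list medians as vertical bars; red points were called. The 10 members have a median of -0.07 and 2 red points, and the 6 lists have medians between -0.025 and 0.014 and 4 red points in all.

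**Figure D5:**
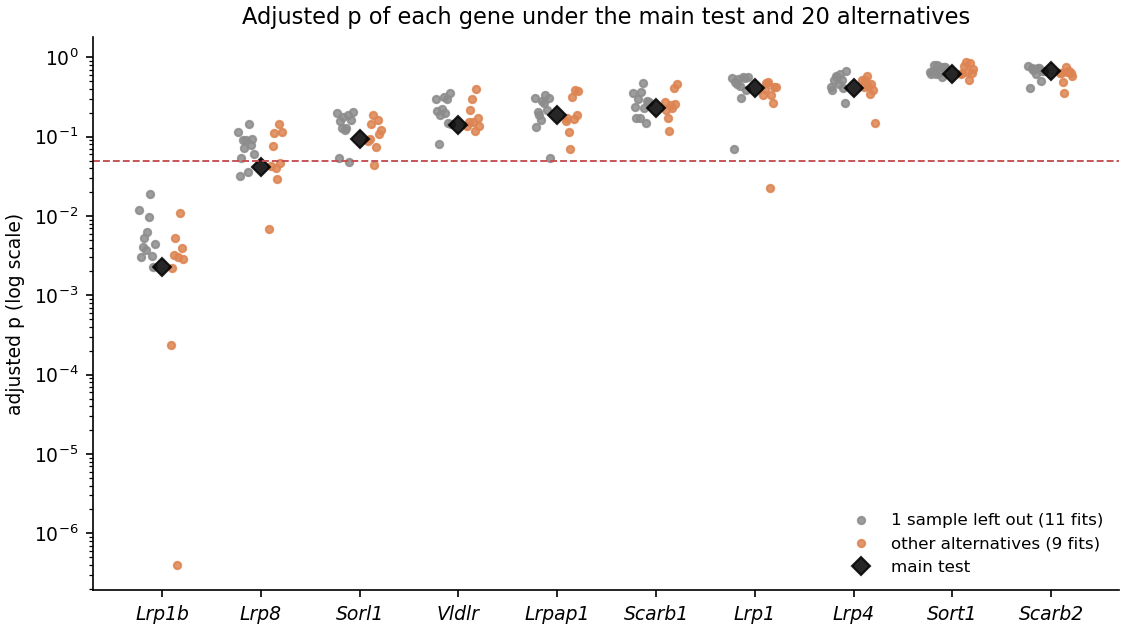
Adjusted p of each member on a log axis in the reported test (black diamonds), in 11 fits with 1 sample left out (grey) and in 9 other settings (orange); the dashed line is the threshold of 0.05. All points of Lrp1b lie under the line, those of Lrp8 lie on either side of it, and those of the other 8 members lie above it apart from 2 of Sorl1 and 1 of Lrp1.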

How the data were processed

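The authors mapped single-end reads of poly(A)-selected libraries to GRCm38 with STAR 2.5.2b and deposited raw counts per Ensembl gene from featureCounts (Subread 1.5.1), according to the study's methods and the submitters' processing notes. Annotation release, strand and multi-mapping options are not given in the sources used here, so overlapping, antisense and near-identical genes are uncertain. The deposited normalized signal, raw counts divided by 1 size factor per sample by the authors, served as an alternative.

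Genes with at least 5 counts in 50% of samples (6 of 11) were tested with edgeR 4.0.16 (R 4.3.3; quasi-likelihood, robust, TMM scaling, group as the sole term, two-sided, called at adjusted p under 0.05). The study's own tool was DESeq2. CPM and FPKM used TMM-scaled totals, intervals of fold changes were approximate, and ratios used counts + 0.5. Gene models and 3′ UTRs came from GENCODE M21, to which 48349 rows matched. Counting error alone would give at most 3.87% for any member. The script was tested on simulated data.

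Named genes were all members, Apoe, Reln, Dab1, Lrp12, Mesd and Grn, and called genes of the pathway lists, at most 4 a list. Some genes of the lists are not reported here. Members and lists were chosen with earlier results of these data known. Alternatives were DESeq2 1.42.0, 3 scalings, 2 filters, a replicate block, limma 3.58.1 on log2(value + 1) of the normalized signal, thinning to the shallowest total, and leaving out each sample. Replicates differed by more than sampling noise (chi-square per degree of freedom 1.23 to 5.58 over 25 pairs).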

Additional observations from a re-analysis of the deposited data

Results flagged for a closer look

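In 4 of 32 series of values (the 10 members, 5 ratios and the total count, each in 2 groups), 1 sample stood apart from the rest of its group by Dixon's test, where chance gives about 1.6. Lrp8 was 234.8 CPM in control replicate 2 and 243.8 to 249.1 in the other control samples. Scarb2 was 226.7 CPM in the same sample and 216.7 to 219.6 in the others. Lrpap1 was 204.3 CPM in control replicate 6 and 216.9 to 222.8 in the others, and 215.4 CPM in mimic replicate 5 and 228.7 to 230.9 in the others.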

How the results depend on the processing

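Of 200 member values under 20 alternatives, 184 kept direction and side of the threshold, 13 lost the call, 3 gained it and 0 reversed, and of 220 values of the other named genes 192 kept both. The number of members called, all lower, was 2 with DESeq2, RLE scaling, a minimum of 10 counts and the normalized signal, 1 with upper-quartile scaling, library totals alone or thinning, 4 without a count filter (Lrp1, Lrp1b, Lrp8 and Sorl1), and 1 to 2 with 1 sample left out. For Lrp8 the adjusted p was 0.0758 with upper-quartile scaling, 0.111 with library totals and 0.113 with thinning. Over all genes, 785 were called without a filter (485 lower, 300 higher), and 121 higher with thinning. The split of calls moved with scaling, from 62% lower to 49.1% with upper-quartile scaling and 36.3% with library totals (185 lower, 324 higher), while the median log2 fold change of all genes was -0.000149 as reported and at most 0.0185 under another scaling. With 1 sample left out 218 to 491 genes were called, 141 to 295 lower and 68 to 229 higher. The total was 218 without control replicate 1, the deepest, 237 without mimic replicate 2 and 278 without mimic replicate 4. Lower calls were 199 without control replicate 4 and 202 without control replicate 6. Pathway lists gave 10 calls without a filter, 2 with the normalized signal or thinning, and 1 to 7 with 1 sample left out (7 without mimic replicate 3, 2 without control replicate 5 or mimic replicate 4, 1 without control replicate 1 or mimic replicate 2). The log2 ratio of Lrpap1 to Lrp1 was 0.132 to 0.195 with 1 sample left out. Coding length kept 5 members in place. With any annotated 3′ UTR 2 members held the 7-letter word. The 3′ UTR after the main stop codon, an alternative chosen after seeing the data, held it in 1. The ratio of Lrp8 to Vldlr lay between -0.028 and -0.002 with 1 sample left out, that of Lrp1 to Lrp1b was 0.078 without mimic replicate 1, and that of Scarb1 to Scarb2 was 0.045 without control replicate 6 and 0.046 without mimic replicate 1; none passed. The cause of these moves was not tested.

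Replicate numbers gave no sign of pairing the samples. Deviations of same-numbered samples correlated at -0.0782 to 0.0694 over 5 pairs, within the -0.15 to 0.143 of the 20 other pairs. Whether same-numbered samples shared a culture cannot be told from these correlations. With a replicate block, which leaves out control replicate 6, 1 member was called (Lrp8 had an adjusted p of 0.145), 328 genes in all (154 lower, 47%), and 1 in the pathway lists. Sort1 was -0.0178 with the block, uncalled as before.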
